A study of Mus musculus with 6 samples.

Results

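The genes of the vacuolar proton pump (V-ATPase) and of the other steps of acid secretion were compared between H10 and C8 cells. The list held 35 genes, taken by symbol: the subunits of both pump sectors with their isoforms, 2 accessory subunits, chloride and bicarbonate transport genes, genes of ruffled border trafficking, the lysosomal channel gene Mcoln1 and Acp5. Of these, 34 were represented by a feature annotated with that symbol alone, out of 19930 such genes on the array. Atp6v0c, the proteolipid of the rotating ring, had no feature annotated to it and is not analysed here. No feature of a listed gene was shared with another symbol.

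H10 was labelled osteoclastogenic and C8 non-osteoclastogenic, and both lines came from RAW264.7, a mouse macrophage line. Both carried a retroviral Lifeact-mEGFP construct with puromycin resistance and were isolated as clones by limiting dilution. With 1 line per phenotype, line and phenotype cannot be told apart. Both were given sRANKL (60 ng/mL), the cytokine that starts osteoclast formation, for 2 days before RNA was taken for 3 Affymetrix Mouse Gene 1.0 ST arrays per line. Unstimulated cells were not analysed here, and as no source ties an array to its own culture, each p-value reflects array-to-array spread that could be technical.

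An osteoclast dissolves bone mineral by pumping protons into the sealed space beneath its ruffled border. The V-ATPase does this with a cytosolic V1 sector that splits ATP and a membrane V0 sector that carries the protons. Carbonic anhydrase II supplies the protons, a chloride exchanger balances the charge, and an anion exchanger on the opposite membrane removes the bicarbonate. The same pump acidifies lysosomes and endosomes in macrophages, so most of its subunits are made before osteoclasts form. In bulk cultures, a change in the share of differentiating cells and a change in RNA per cell cannot be told apart.

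Values are log2 values normalized by the authors with RMA, differences are H10 minus C8, and a gene was called higher or lower at an adjusted p under 0.05 from limma, adjusted over all 35545 features. A gene's level is not set against another gene's, because features differ in their probes. Of 10 osteoclast markers, 5 were called higher (Acp5 among them) and 0 lower in H10 cells, against 1.85% and 1.04% of all genes. Those that did not pass were Tnfrsf11a (difference 0.26), Nfatc1 (0.14), Calcr (0.07), Itgb3 (0.06) and Mmp9 (-0.34). Of 8 macrophage markers, 1 was called higher and 0 lower, with 7 of the 8 above the table median. Markers of T cells, B cells, neutrophils and epithelial cells averaged 5.44 to 7.43 in H10 cells and 5.55 to 7.52 in C8 cells per list and array. Each of these averages was under the table median of 7.70. Above it lay 1 T cell marker, Cd3e (8.06 in H10 and 8.08 in C8 cells), and 1 epithelial marker, Krt8 (8.60 and 8.64). Those of fibroblasts and osteoblasts averaged 7.97 to 8.39 in H10 cells and 7.66 to 7.82 in C8 cells, with decorin (Dcn) at 7.80 ± 0.64 and 6.32 ± 0.16 (SD, n = 3 each). No gene of these other cell types passed the test, and their part in the results was not tested.

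A minority of the acid secretion genes was called higher in H10 than in C8 cells, and Atp6v0d2 had the largest difference of the 34. Of the 34 measured, 6 were called higher (17.6%), against 1.85% of all genes, and 0 were called lower, against 1.04% of all genes. The 6 were Atp6v0d2, Atp6v1c1, Atp6v1g1, Clcn7, Slc4a2 and Acp5, and they encode parts of both pump sectors, of chloride transport and of bicarbonate removal, and a secreted phosphatase. No gene of proton supply (Car2), of the accessory subunits or of trafficking was called. Apart from Atp6v0d2, their log2 fold changes were 0.47 to 0.72. All 3 H10 arrays lay above all 3 C8 arrays for 20 of the 34 genes, against 7.74% of all genes, and below them for 2, against 12.7% of all genes. The median log2 fold change was 0.17 over the 34 genes and -0.03 over all genes. Without an adjustment, 18 of the 34 had a p under 0.05 in the upward direction and 1 in the downward direction, against 6.1% and 7.67% of all genes. These genes were bright on the arrays, and among genes brighter than the table median 2.94% were called higher and 1.67% lower, while 11.2% had all H10 arrays above and 16.5% all H10 arrays below all C8 arrays.

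**Figure D1:**
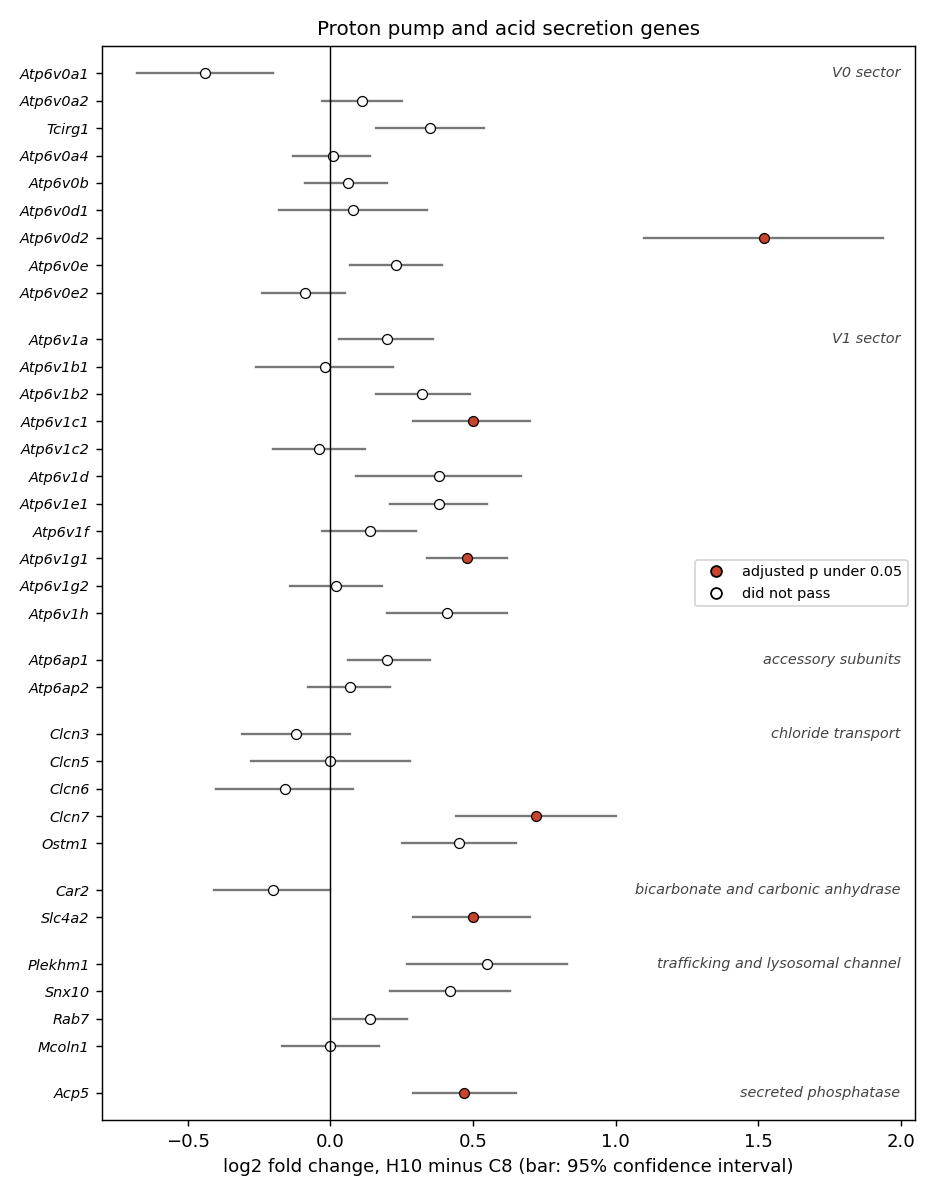
Log2 fold change of each of the 34 genes (x axis, H10 minus C8) by group (y axis), with the 95% confidence interval from limma (3 H10 and 3 C8 arrays). Atp6v0d2 lies at 1.52, apart from the other filled points at 0.47 to 0.72, and Atp6v0a1 lies lowest at -0.44.

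The number of calls depended on single arrays. It was 5 without H10 replicate 1 or without C8 replicate 1, 1 without H10 replicate 2 or C8 replicate 2 and 0 without H10 replicate 3 or C8 replicate 3, while the median over the 34 genes stayed between 0.14 and 0.20. H10 replicate 1 was the lowest of the H10 arrays for 22 of the 34 genes (64.7%), for 3 of the 6 called higher, and for 31.1% of all genes. Its part in the result was not tested.

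The V0 sector holds the proton path in the membrane. Atp6v0d2 encodes the d2 isoform of the subunit that joins the rotating ring to the V1 stalk, and in mice it is also needed for fusion of osteoclast precursors. Its log2 values were 13.70, 13.50 and 13.67 on the H10 arrays, against 12.40, 11.71 and 12.20 on the C8 arrays. The H10 values lay close together while C8 replicate 2 stood below the other C8 arrays, and the lowest H10 value was above the highest C8 value. The difference was 1.52 (standard error 0.18), a 2.87-fold difference, with an adjusted p = 0.0103 from limma. The call was lost without H10 replicate 3 (adjusted p = 0.0586), without C8 replicate 3 (adjusted p = 0.0515) and without both replicate 1 arrays (adjusted p = 0.0506), while the log2 fold change stayed between 1.32 and 1.67 over all 15 alternatives. Atp6v0d1, the broadly expressed d1 isoform, had 12.16, 12.48 and 12.52 in H10 cells and 12.25, 12.31 and 12.36 in C8 cells. The groups overlapped, with a difference of 0.08 (95% confidence interval -0.18 to 0.34, adjusted p = 0.882).

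Of the 4 isoforms of the large a subunit, the osteoclast isoform and the a1 isoform had differences of opposite sign, and neither passed the test. Tcirg1 encodes a3, the isoform that directs the pump to the ruffled border and whose loss causes osteopetrosis. It had 13.26, 13.37 and 13.42 in H10 cells, against 13.07, 12.88 and 13.04 in C8 cells, with no overlap and a difference of 0.35 (95% confidence interval 0.16 to 0.54, adjusted p = 0.102). Atp6v0a1, the isoform best known from synaptic vesicles and lysosomes, had 10.11, 10.38 and 10.32 in H10 cells, against 10.84, 10.68 and 10.60 in C8 cells. All H10 arrays were below all C8 arrays, with a difference of -0.44 (95% confidence interval -0.68 to -0.20, adjusted p = 0.107). Atp6v0a2, found mainly in the Golgi and endosomes, had 11.44, 11.45 and 11.52 in H10 cells and 11.39, 11.33 and 11.35 in C8 cells, a difference of 0.11 (adjusted p = 0.552). A further feature of Atp6v0a2 gave a difference of 0.00. Atp6v0a4, the isoform of kidney intercalated cells, lay under the table median in both lines and had a difference of 0.01.

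The remaining V0 subunits differed little. Atp6v0e, a small membrane subunit, had 13.09, 12.99 and 13.07 in H10 cells and 12.89, 12.75 and 12.82 in C8 cells, with no overlap and a difference of 0.23 (adjusted p = 0.206). Its paralogue Atp6v0e2 had 10.95, 11.03 and 10.95 in H10 cells and 11.07, 11.02 and 11.12 in C8 cells, which overlapped. Atp6v0b, a proteolipid of the rotating ring, had a difference of 0.06 (95% confidence interval -0.09 to 0.20). The median of the 9 measured V0 genes was 0.08.

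In the V1 sector the subunits that most tissues express were all higher on every H10 array than on any C8 array, while the isoforms restricted to a few tissues were not. The 8 broadly expressed genes, Atp6v1a, Atp6v1b2, Atp6v1c1, Atp6v1d, Atp6v1e1, Atp6v1f, Atp6v1g1 and Atp6v1h, had differences of 0.14 to 0.50 with a median of 0.38, and 2 of them were called higher. Over all genes, 7.74% had all H10 arrays above all C8 arrays and 1.85% were called higher. Among genes brighter than the table median these shares were 11.2% and 2.94%. Their median deviation from the C8 mean was 0.30, 0.36 and 0.50 on H10 replicates 1, 2 and 3. The split into broad and restricted subunits was made with the values known, and no test was made of it. Of the restricted isoforms, Atp6v1b1 and Atp6v1c2 lay under the table median, so little can be read from the contrast with them.

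Atp6v1c1 encodes the C subunit, which ties the stator of V1 to the membrane sector. It had 12.75, 12.97 and 13.00 in H10 cells, against 12.34, 12.45 and 12.44 in C8 cells. H10 replicate 1 was the lowest H10 array and still lay above the C8 arrays, and the difference was 0.50 (standard error 0.09, adjusted p = 0.0437 from limma). Atp6v1g1, a subunit of the stator stalks, had the tightest values of the sector, at 12.43, 12.37 and 12.47 in H10 cells and 11.93, 11.95 and 11.96 in C8 cells. The difference was 0.48 (standard error 0.06, adjusted p = 0.0125 from limma), and the other feature annotated to Atp6v1g1 gave 0.47 (adjusted p = 0.012). The call of Atp6v1c1 was lost without H10 replicate 2 or 3 or without any 1 of the C8 arrays (adjusted p = 0.105 to 0.182), and that of Atp6v1g1 without replicate 2 or 3 of either line (adjusted p = 0.0546 to 0.0852).

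Atp6v1b2, the B subunit of macrophages and osteoclasts, forms the ATP-splitting head with the A subunit. It had 13.62, 13.53 and 13.69 in H10 cells, against 13.34, 13.30 and 13.23 in C8 cells, a difference of 0.32 (95% confidence interval 0.16 to 0.49, adjusted p = 0.0863). Atp6v1a, the catalytic A subunit, had a difference of 0.20 (adjusted p = 0.32). The stator gene Atp6v1e1 came nearest to a call among the V1 genes that did not pass, with 11.48, 11.48 and 11.64 in H10 cells, against 11.21, 11.12 and 11.13 in C8 cells (difference 0.38, adjusted p = 0.0565). Atp6v1h, a regulator of ATP hydrolysis, had 0.41 (adjusted p = 0.0876), and the rotor genes Atp6v1d and Atp6v1f had 0.38 (adjusted p = 0.25) and 0.14 (adjusted p = 0.531).

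The V1 isoforms of restricted expression had differences close to 0. Atp6v1b1, known from kidney and inner ear, had 7.51, 7.57 and 7.57 in H10 cells and 7.37, 7.62 and 7.72 in C8 cells. Atp6v1c2, an isoform of a few epithelia, had 6.85, 6.97 and 7.01 in H10 cells and 7.0, 6.95 and 7.01 in C8 cells. Both lay under the table median, so that their expression in these cells is uncertain. Atp6v1g2, the isoform of neurons, had 9.34, 9.26 and 9.29 in H10 cells and 9.2, 9.27 and 9.36 in C8 cells, a difference of 0.02.

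Of the accessory subunits, Atp6ap1 (Ac45), which helps to assemble and place the pump, had all H10 arrays above all C8 arrays and a difference of 0.20 (adjusted p = 0.21). Atp6ap2, the prorenin receptor, had a difference of 0.07 (95% confidence interval -0.08 to 0.21).

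**Figure D2:**
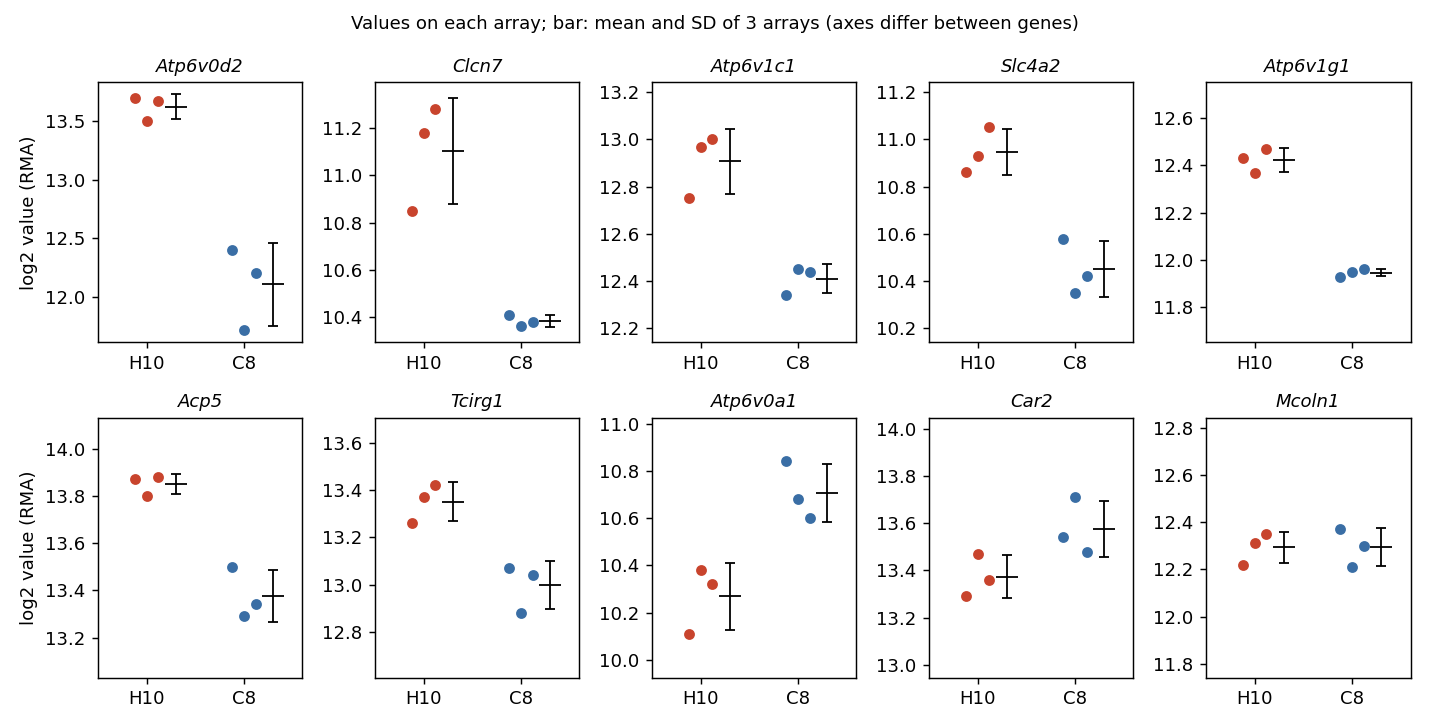
Log2 value (y axis) of 10 genes on each H10 and C8 array (points), with each line's mean and SD (3 arrays); axes differ between genes. H10 arrays lie above C8 arrays for Atp6v0d2, Clcn7, Atp6v1c1, Slc4a2, Atp6v1g1, Acp5 and Tcirg1 and below them for Atp6v0a1 and Car2, and the lines overlap for Mcoln1.

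Whether related genes differed between the lines by unequal amounts was asked within each array, by subtracting the log2 value of a paralogue. The size of such a value has no meaning as a level, and only the contrast between the lines (H10 minus C8) is read. For 10 of 11 pairs the H10 and C8 arrays did not overlap. This count is a description, since the pairs share genes (Clcn7 is in 3 of them), several hold a gene already called, and no share over other gene pairs was computed. Atp6v0d2 minus Atp6v0d1 gave 1.54, 1.02 and 1.15 in H10 cells, against 0.15, -0.60 and -0.16 in C8 cells, a contrast of 1.44. Tcirg1 minus Atp6v0a1 gave 3.15, 2.99 and 3.10 in H10 cells and 2.23, 2.20 and 2.44 in C8 cells, a contrast of 0.79. The contrast was 0.24 for Tcirg1 minus Atp6v0a2 and -0.55 for Atp6v0a1 minus Atp6v0a2. For Clcn7 the contrast was 0.84 against Clcn3, 0.72 against Clcn5 and 0.88 against Clcn6. Clcn7 minus Clcn6 had the least spread of these, at 1.33, 1.38 and 1.42 in H10 cells and 0.45, 0.53 and 0.51 in C8 cells. The contrast was 0.54 for Atp6v1c1 minus Atp6v1c2, 0.46 for Atp6v1g1 minus Atp6v1g2 and 0.32 for Atp6v0e minus Atp6v0e2. Atp6v1b2 minus Atp6v1b1 had a contrast of 0.34 with overlap (exact permutation test, two-sided, p = 0.2). As Atp6v1c2 and Atp6v1b1 lay under the table median, the contrasts against them are not read as unequal change of paralogues. Each of the other 10 pairs had p = 0.1 in the two-sided exact permutation test, which is the smallest that 3 against 3 arrays can give, and p = 0.11 after adjustment over the 11 pairs, so no pair could pass 0.05.

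**Figure D3:**
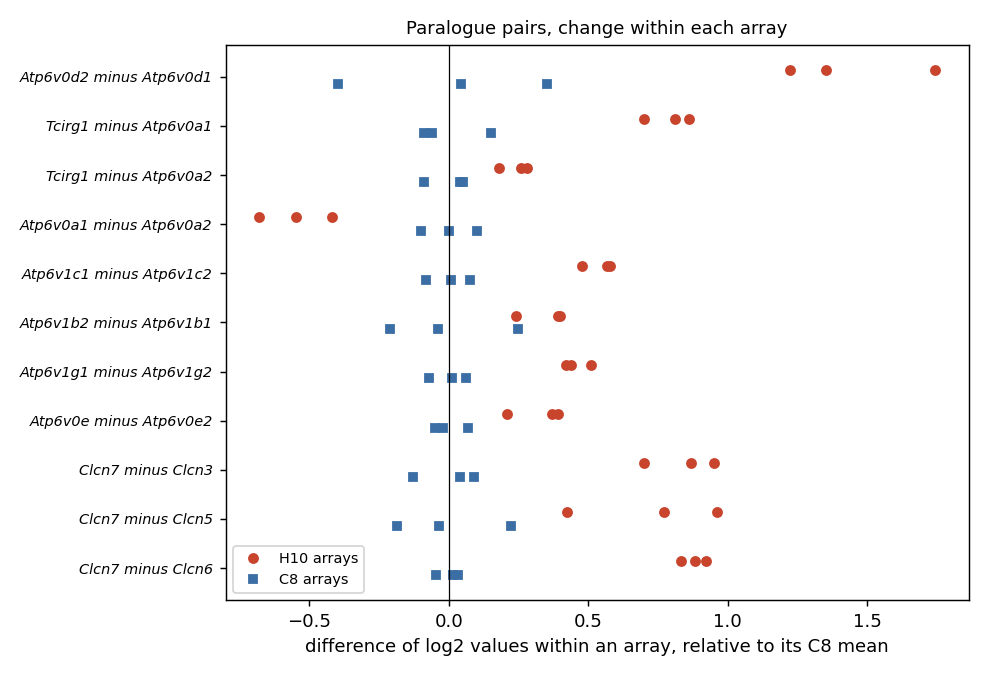
Difference of the log2 values of 2 paralogues within each array, relative to the mean of the C8 arrays (x axis), for 11 pairs (y axis), with H10 arrays as circles above C8 arrays as squares. The lines separate for 10 pairs and overlap for Atp6v1b2 minus Atp6v1b1.

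Among the chloride transport genes, the exchanger of lysosomes and ruffled border and its partner had all H10 arrays above all C8 arrays, while the endosomal relatives overlapped. Clcn7, whose loss causes osteopetrosis, had 10.85, 11.18 and 11.28 in H10 cells, against 10.41, 10.36 and 10.38 in C8 cells. The C8 arrays lay close together and H10 replicate 1 was the nearest H10 array to them. The difference was 0.72 (standard error 0.11), a 1.65-fold difference, with an adjusted p = 0.0339 from limma. The call was lost without H10 replicate 2 or 3 or without any 1 of the C8 arrays (adjusted p = 0.0878 to 0.138). Ostm1, the beta subunit that stabilizes the exchanger, had 11.63, 11.79 and 11.87 in H10 cells, against 11.38, 11.24 and 11.33 in C8 cells, a difference of 0.45 (95% confidence interval 0.25 to 0.65) that did not pass (adjusted p = 0.0555).

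The other exchangers acidify endosomes and late endosomes. Clcn3 had 10.52, 10.68 and 10.70 in H10 cells and 10.69, 10.86 and 10.71 in C8 cells. Clcn5 had 8.97, 8.95 and 8.86 in H10 cells and 9.14, 8.94 and 8.70 in C8 cells. Clcn6 had 9.52, 9.80 and 9.86 in H10 cells and 9.96, 9.83 and 9.87 in C8 cells. Their differences were -0.12, 0.00 and -0.16, with adjusted p-values of 0.695, 1 and 0.668.

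The promoters of these genes were searched for letters that the rule for the list did not use, in RefSeq promoter sequences of GRCm38.p6 that run from 250 bases before to 50 bases after a start site. Of the 35 genes, 28 had at least 1 such promoter, 42 in all. The E-box CACGTG, the core of the element that MiT/TFE transcription factors bind at lysosomal genes and its own reverse complement, was found in promoters of 7 of the 28 genes (25%), Atp6v0b, Atp6v0d1, Atp6v0e, Atp6v1a, Clcn6, Clcn7 and Mcoln1, against 8.91% of 17492 protein-coding genes. Counted by promoter, it was in 7 of 42 (16.7%), against 7.84% of protein-coding promoters and 7.15% of all promoters of this length. The M-box TCATGTG, searched on both strands, was in promoters of 5 genes, Acp5, Atp6v0c, Clcn5, Clcn6 and Clcn7, against 3.56% of protein-coding genes. The AP-1 motif TGANTCA was in promoters of 2 genes, against 8.12%, and the short NFAT core GGAAA, on both strands, in those of 19 (67.9%), against 63.7%. By promoter, the M-box was in 11.9%, against 2.99% of protein-coding promoters. The AP-1 motif was in 4.76%, against 6.99%, and the NFAT core in 54.8%, against 59.9%. None of these motifs contains another, although the E-box and the M-box share their outer letters. Clcn6 held both in the same promoter, and Clcn7 held them in different promoters. Of the 6 genes called higher, Clcn7, Slc4a2 and Acp5 had a promoter in the table. The E-box was in 1 of these 3, the M-box in 2, the AP-1 motif in 0 and the NFAT core in 3. A match of letters is not a binding site.

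The following 4 promoters are shown because 3 of them carry 2 E-boxes beside unequal log2 fold changes (Clcn7 at 0.72, Atp6v0b at 0.06 and Mcoln1 at 0.00) and the other is the Acp5 promoter with the M-box. Capitals mark E-boxes and M-boxes, and all are written 5′ to 3′ along the gene. They lie at chr17:25133141-25133440 (plus strand), chr4:117887280-117887579 (minus strand), chr8:3500269-3500568 (plus strand) and chr9:22130549-22130848 (minus strand). The E-boxes begin 15 bases before and 7 bases after the start site in Clcn7, 36 and 18 bases before it in Atp6v0b and 71 and 45 bases before it in Mcoln1. Clcn6, which is not shown, also had a promoter with 2 E-boxes, which held an M-box too, and a log2 fold change of -0.16.
Clcn7: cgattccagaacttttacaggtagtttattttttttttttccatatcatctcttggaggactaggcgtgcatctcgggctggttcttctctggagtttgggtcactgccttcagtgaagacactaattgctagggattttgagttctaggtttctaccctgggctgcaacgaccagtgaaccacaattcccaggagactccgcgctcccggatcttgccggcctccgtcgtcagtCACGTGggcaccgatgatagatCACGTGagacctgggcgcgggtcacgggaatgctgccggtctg
Atp6v0b: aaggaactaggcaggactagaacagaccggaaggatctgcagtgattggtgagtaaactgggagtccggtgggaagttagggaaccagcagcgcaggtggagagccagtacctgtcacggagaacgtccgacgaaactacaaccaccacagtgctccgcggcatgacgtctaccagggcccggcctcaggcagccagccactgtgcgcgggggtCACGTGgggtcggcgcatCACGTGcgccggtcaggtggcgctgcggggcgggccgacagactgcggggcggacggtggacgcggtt
Mcoln1: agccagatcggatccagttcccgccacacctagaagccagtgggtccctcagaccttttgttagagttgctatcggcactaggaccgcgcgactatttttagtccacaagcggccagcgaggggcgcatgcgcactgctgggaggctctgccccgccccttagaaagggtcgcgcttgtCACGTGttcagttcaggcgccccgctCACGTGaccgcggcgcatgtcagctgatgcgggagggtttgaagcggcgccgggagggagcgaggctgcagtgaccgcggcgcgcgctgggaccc
Acp5: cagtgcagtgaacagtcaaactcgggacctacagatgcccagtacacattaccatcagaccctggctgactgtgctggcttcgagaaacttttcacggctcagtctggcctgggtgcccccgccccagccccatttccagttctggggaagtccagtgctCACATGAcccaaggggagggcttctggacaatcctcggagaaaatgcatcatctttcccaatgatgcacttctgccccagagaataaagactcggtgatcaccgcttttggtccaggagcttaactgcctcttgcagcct

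Of the 2 genes of proton supply and bicarbonate removal, the anion exchanger gene was called higher in H10 cells, and the carbonic anhydrase II gene did not pass the test. Slc4a2 (AE2), which trades bicarbonate for chloride at the membrane facing away from bone, had 10.86, 10.93 and 11.05 in H10 cells, against 10.58, 10.35 and 10.42 in C8 cells. The lines did not overlap, and the difference was 0.50 (standard error 0.09, adjusted p = 0.0448 from limma). This call was the nearest to the threshold of the 6. It was lost without any 1 array except C8 replicate 1 (adjusted p = 0.0847 to 0.183) and with the arrays centred on their medians (adjusted p = 0.0822). Car2, carbonic anhydrase II, had 13.29, 13.47 and 13.36 in H10 cells, against 13.54, 13.71 and 13.48 in C8 cells. All H10 arrays were below all C8 arrays by a small margin, with a difference of -0.20 (95% confidence interval -0.41 to 0.00, adjusted p = 0.425).

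The 3 trafficking genes that bring lysosomal membrane to the ruffled border were higher on all H10 arrays than on all C8 arrays, as was not the case for Mcoln1. Of all genes, 7.74% had all H10 arrays above all C8 arrays, and of genes brighter than the table median 11.2%. None of the 4 genes passed the test in limma. At an unadjusted p under 0.05, 3 of the 4 were higher, against 6.1% of all genes and 9.26% of the brighter genes. Plekhm1, an adaptor bound by Rab7, had 10.85, 11.28 and 11.10 in H10 cells, against 10.43, 10.53 and 10.62 in C8 cells, a difference of 0.55 (95% confidence interval 0.27 to 0.83, adjusted p = 0.0892). Snx10, a sorting nexin whose loss causes osteopetrosis, had 10.68, 10.64 and 10.71 in H10 cells, against 10.43, 10.17 and 10.17 in C8 cells, a difference of 0.42 (adjusted p = 0.0796). Rab7, the GTPase of late endosomes, had 12.63, 12.65 and 12.69 in H10 cells, against 12.51, 12.52 and 12.52 in C8 cells. The arrays did not overlap, and the difference was small, at 0.14 (95% confidence interval 0.01 to 0.27, adjusted p = 0.387). Mcoln1, the lysosomal calcium channel TRPML1, had 12.22, 12.31 and 12.35 in H10 cells and 12.37, 12.21 and 12.30 in C8 cells, with a difference of 0.00 (95% confidence interval -0.17 to 0.17).

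Acp5 encodes tartrate-resistant acid phosphatase (TRACP), the enzyme that the study stained to recognize osteoclasts. Its values were 13.87, 13.80 and 13.88 in H10 cells, against 13.50, 13.29 and 13.34 in C8 cells. The lines did not overlap, and the difference was 0.47 (standard error 0.08), a 1.39-fold difference, with an adjusted p = 0.033 from limma. It was near the top of the range of values, which ends at 14.70, in both lines. The call was lost without any 1 array except C8 replicate 1 (adjusted p = 0.105 to 0.161) and with the arrays centred on their medians (adjusted p = 0.0643).

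**Figure D4:**
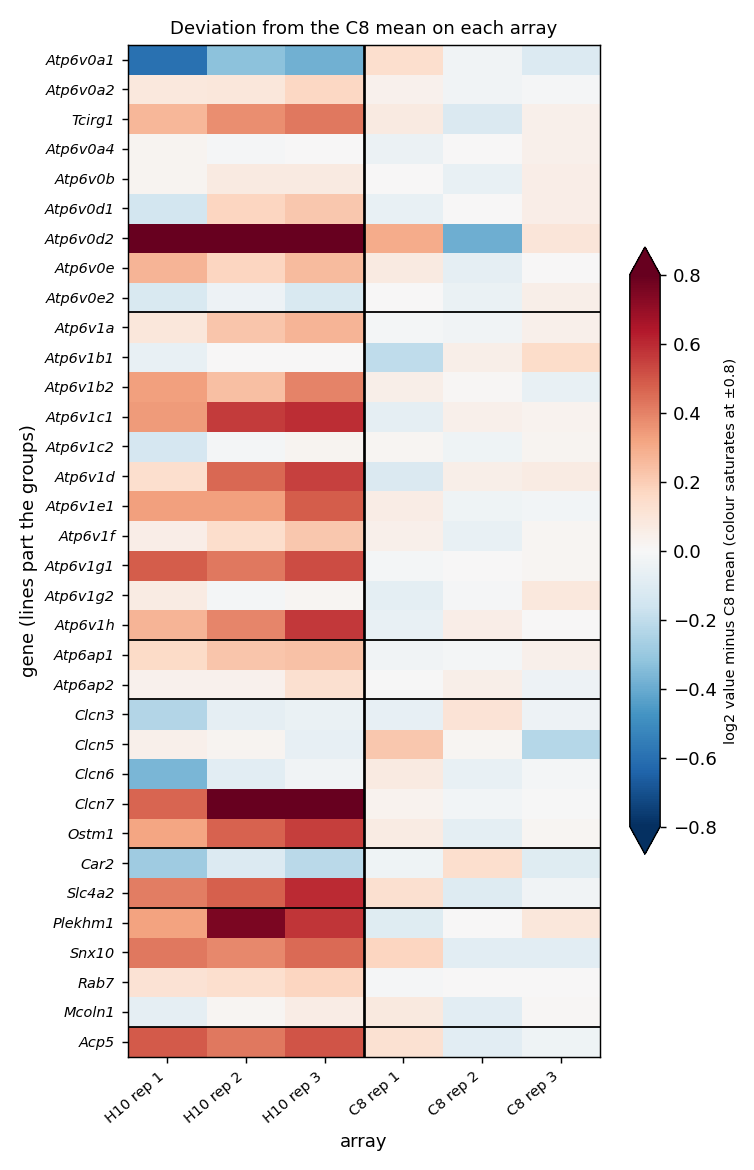
Log2 value of each of the 34 genes minus its C8 mean (colour, saturating at 0.8 in each direction) on the 3 H10 arrays, left, and the 3 C8 arrays, right, with lines between the groups of genes. In 20 of the 34 rows the H10 arrays are all redder than the C8 arrays, with Atp6v0d2 and Clcn7 deepest, and Atp6v0a1 is blue on all 3.

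The pathway was extended with other genes taken from general knowledge. The counts for these lists stand beside the shares over all genes, of which 1.85% were called higher and 1.04% lower. At an unadjusted p under 0.05 from limma these shares were 6.1% upward and 7.67% downward. Of 18 further proton pump subunits and assembly factors, 0 were called higher and 0 lower by limma (3 and 1 at an unadjusted p under 0.05), with a median of -0.02. This list includes Atp4a, Atp4b and Atp12a, which are not V-ATPase genes, and 12 of the 18 lay above the table median. The largest differences were 0.43 for Wdr7 (adjusted p = 0.35) and -0.35 for Dmxl2 (adjusted p = 0.195), which encode the partners of a complex that assembles the pump. Dmxl1, the paralogue of Dmxl2, had all H10 arrays above all C8 arrays and a difference of 0.30 (adjusted p = 0.103 from limma). Of 12 genes that dock mTORC1 at the lysosome, where the pump takes part in amino acid sensing, 0 were called in either direction (0 upward and 2 downward at an unadjusted p under 0.05). Rraga, a Rag GTPase, and Slc38a9, an amino acid sensor, had -0.23 (adjusted p = 0.337) and -0.20 (adjusted p = 0.396).

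Of the 4 MiT/TFE genes, transcription factors of lysosomal and osteoclast genes, Tfec was called higher and Tfe3 lower. Tfec had 11.25 ± 0.09 in H10 cells and 10.33 ± 0.10 in C8 cells (SD, n = 3 each), a difference of 0.92 (adjusted p = 0.00415 from limma). Tfe3 had 11.24 ± 0.05 in H10 cells and 11.59 ± 0.04 in C8 cells, a difference of -0.35 (adjusted p = 0.0419 from limma). Mitf and Tfeb had 0.06 (adjusted p = 0.932) and -0.04 (adjusted p = 0.89).

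Of 15 further carbonic anhydrases, 1 was called higher and 1 lower, against 1.85% and 1.04% of all genes. Car13, a cytosolic enzyme, had 11.71 ± 0.19 in H10 cells and 10.67 ± 0.04 in C8 cells, a difference of 1.04 (adjusted p = 0.00554 from limma), while Car12, a membrane enzyme that faces the outside of the cell, had 9.91 ± 0.19 in H10 cells and 10.68 ± 0.21 in C8 cells, a difference of -0.77 (adjusted p = 0.0481 from limma; SD, n = 3 each). Car6 and Car3 had -0.26 (adjusted p = 0.183) and -0.24 (adjusted p = 0.165). Of 22 further chloride, bicarbonate and proton transport genes measured, 0 were called in either direction by limma (2 upward and 1 downward at an unadjusted p under 0.05). The sodium and proton exchanger gene Slc9a9 had -0.49 (adjusted p = 0.0654), and the bicarbonate transporter gene Slc4a8 had 0.23 (adjusted p = 0.225). Of 28 further late endosome and ruffled border trafficking genes measured, 1 was called higher and 0 lower, against 1.85% and 1.04% of all genes. At an unadjusted p under 0.05 there were 3 upward and 4 downward, against 6.1% and 7.67% of all genes. The called gene was Rab32, a GTPase of lysosome-related organelles, with 9.73 ± 0.10 in H10 cells and 9.11 ± 0.16 in C8 cells (difference 0.63, adjusted p = 0.0343 from limma). Rab27a, another GTPase of secretory lysosomes, and Plekhm3, a relative of Plekhm1, had -0.54 (adjusted p = 0.157) and -0.40 (adjusted p = 0.273).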

How the data were processed

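The deposited log2 values of 3 H10 and 3 C8 arrays were used as the authors made them, by RMA, a method that subtracts background, brings all arrays to a common distribution and merges each feature's probes. Affymetrix Expression Console is listed in the submitters' processing notes. Neither a version of it nor a release of the annotation is given in the sources used. The annotation gave 1 symbol for 21781 of 35545 features, several for 1621 and none for 12143. All 34 measured members matched the gene table of GRCm38.p6 by Entrez identifier. The single-symbol feature with the highest mean stood for each gene. For H10 against C8, limma 3.58.1 was run under R 4.3.3 (lmFit and eBayes, two-sided, no filter, 4 residual and 2.57 prior degrees of freedom), after the paper's methods, with Benjamini-Hochberg adjustment. Array number limits the precision. On simulated data for this comparison over 35545 features, 37.3% of log2 changes of 0.5, 83.6% of changes of 1 and 100% of changes of 3 were called. The simulation raised 67, 67 and 66 features by these amounts, and the shares can differ where another number of features changes.

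The members, lists, paralogue pairs and motifs were chosen with earlier results of these data known. Array values were printed for members past the test, members of the pairs and the chief genes of each step, and of the further lists up to 4 genes in each direction past the test and up to 2 with the largest changes that did not pass. Values of the further members nearest to a call and of Dmxl1 were added after they were seen. Alternatives were leaving out each array, median centring, quantile normalization, a block for the replicate number, removal of dim features, means over features, an intensity trend with robust prior, adjustment over 1 feature per gene and an adjusted p under 0.01. Leaving out both replicate 1 arrays was added after seeing the data. Python 3.11.15 and matplotlib 3.10.9 were used for summaries and figures.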

Additional observations from a re-analysis of the deposited data

How the results depend on the processing

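The count of 6 acid secretion genes called higher was 0 to 5 when 1 array was left out, 2 without both replicate 1 arrays, 1 with the replicate block, 3 with median centring and 0 at an adjusted p under 0.01. It was 11 of 34 with an intensity trend and robust prior, against 2.22% of all genes. With the filter on dim features it was 13 of 31, against 4.58% of all genes tested there. In this filter fewer features were tested, and Atp6v0a4, Atp6v1b1 and Atp6v1c2 were dropped. The filter also called 1 gene lower, Atp6v0a1 (adjusted p = 0.0428 from limma). All 6 genes were among those called with quantile normalization (9), the trend (11), the filter (13), 1 feature per gene (8) and means over features (6). Each of the 6 kept its direction in all 15 alternatives, which adds no support. All H10 arrays lay above all C8 arrays for these genes, so leaving out arrays could not reverse it. The block, the filter, the trend, 1 feature per gene and the stricter threshold leave the log2 fold change as it was. Over all genes, 369 were called higher and 208 lower. These counts were 152 to 346 and 40 to 126 when 1 array was left out, 225 and 71 with the replicate block and 164 and 50 at an adjusted p under 0.01, and the count of lower genes was 423 with the filter and 78 without both replicate 1 arrays. Over all features, deviations from the line means correlated weakly between same-numbered arrays of the lines (0.17, 0.00 and -0.12 for replicates 1, 2 and 3). Between differently numbered arrays the correlations were -0.18 to 0.23. These correlations cannot exclude a shared culture or batch, so whether the numbers pair the arrays is not known. With the block only Atp6v0d2 stayed called. The count of paralogue pairs without overlap was 10 or 11 in every alternative run for it. Leaving out an array cannot make separated arrays overlap, so these alternatives could not lower the count and add no support. In the simulation with 3 arrays a line, log2 changes of 0.5 were often missed (37.3% were called). As the number of changed features was set there, the rate in these data is not known.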
